A study of Mus musculus with 6 samples.

Results

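The proneural and neuronal differentiation factors described here were 9 transcription factor genes chosen by name: Neurog1, Neurog2, Neurod1, Neurod4, Nhlh1, Nhlh2, Insm1, Myt1 and Isl1. They were 9 of 18194 genes that a probe set of the array names alone, and they were covered by 16 of 34958 such probe sets. All 16 were followed on 6 Affymetrix mouse arrays, which compared neurospheres grown from 2 neural crest-derived tissues. Of these, 3 arrays held RNA of rNCSC neurospheres from dorsal root ganglia (DRG, which house the sensory neurons of the trunk) of embryos at day 12.5, and the labels call these cells reprogrammed. The other 3 arrays held RNA of pNCSC neurospheres whose source was adult palate, dissected from 3 to 5 animals of 6 to 8 weeks. Both cultures were C57BL/6J without a transgene named in the labels, were used at passage 3, and grew without serum in medium with EGF at 20 ng/ml, heparin at 0.5 U/ml, N2 and B27. The medium held bFGF at 20 or 40 ng/ml and B27 at 1% or 3%, and the labels do not say which culture received which amount. Nothing in the labels says that the 3 arrays of a culture came from separate animals or cultures, so the tests measure the spread between arrays, which may be technical. Age, tissue and culture differ together between the groups and cannot be told apart.

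Neurogenins (Neurog1, Neurog2) are basic helix-loop-helix (bHLH) factors that commit neural crest and neural tube cells to a neuronal fate, and in the forming DRG they act in successive waves of sensory neurogenesis. They pair with E proteins, bind E-box DNA, raise Delta ligands, and switch on later bHLH factors (Neurod1, Neurod4, Nhlh1, Nhlh2) and zinc finger factors (Insm1, Myt1) in cells leaving the progenitor state. Isl1, a LIM homeodomain factor, follows in newborn sensory and sympathetic neurons. Notch signalling through Hes factors, and Id proteins that capture E proteins, hold progenitors back from this sequence.

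Values below are GCRMA values on a log2 scale, with rNCSC minus pNCSC as the difference. A log2 value of 4 was used as the line under which a probe set was called dim, since about 50.2% to 50.6% of probe sets reached it on each array. Genes entered the test if at least 3 of the 6 arrays reached 4, which left 11722 genes, and of these 8596 (73.3%) passed an adjusted p of 0.05 (limma, Benjamini-Hochberg), 4717 (40.2%) of them higher in rNCSC. With more than 7 in 10 tested genes changed, a single call says little by itself, and the size and the array values carry the description. Arrays of 1 culture correlated at 0.988 to 0.996 and arrays of different cultures at 0.833 to 0.844. Markers of the cultures were far apart: all 7 CNS progenitor markers were higher in rNCSC (median difference 6.48), and all 6 tested neural crest and peripheral glia markers were lower in rNCSC (median difference -2.56). Of these 6, Sox10, Ngfr, Erbb3 and Foxd3 lay under 4 on all 3 rNCSC arrays, Tfap2a measured 4.95, 3.76 and 3.79, and S100b measured 6.04, 7.82 and 5.82. In pNCSC all 8 mesenchymal markers were higher (median difference -10.02, summed log2 level 99.8 to 102.7 against 25.8 to 28.6 in rNCSC). Of 7 leukocyte markers 4 were tested and higher in pNCSC (summed level of the 7, 44.0 to 46.3 against 21.6 to 21.9), though Ptprc, Csf1r and Aif1 were under 4 on all 6 arrays. The part of these other cells in the members' differences was not tested. In such bulk RNA, fewer cells with a transcript and less transcript per cell cannot be told apart.

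Neurod1, Neurod4, Insm1 and Myt1 were on in rNCSC and under 4 on every pNCSC array, while Neurog1, Nhlh1, Nhlh2 and Isl1 were under 4 on all 6 arrays in every probe set, and Neurog2 sat at the line in rNCSC. No member probe set reached 4 on any pNCSC array, where they lay between 2.20 and 3.77. The 4 members that entered the test did so only through their rNCSC arrays. All 4 were called higher, against 40.2% of all tested genes. A gene that is at or above 4 on all rNCSC arrays and under 4 on all pNCSC arrays is called almost always: 684 tested genes had that pattern and 98.8% of them were called, and these made up 5.77% of all tested genes, so the 4 calls add little to the pattern itself. Without any filter, over every single-gene probe set, 10 of the 16 member probe sets were called higher, 0 lower and 6 not, where 28.9% of all probe sets were called higher (limma, Benjamini-Hochberg). The 10 come from 6 genes, so they are not separate counts. In all, 8 of the 16 lay under 4 on all 6 arrays, among them called probe sets of Nhlh1 and Myt1. All rNCSC arrays lay above all pNCSC arrays in 11 of the 16, below them in 1 and overlapping in 4, where 33.8% of all probe sets had rNCSC above.

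**Figure D1:**
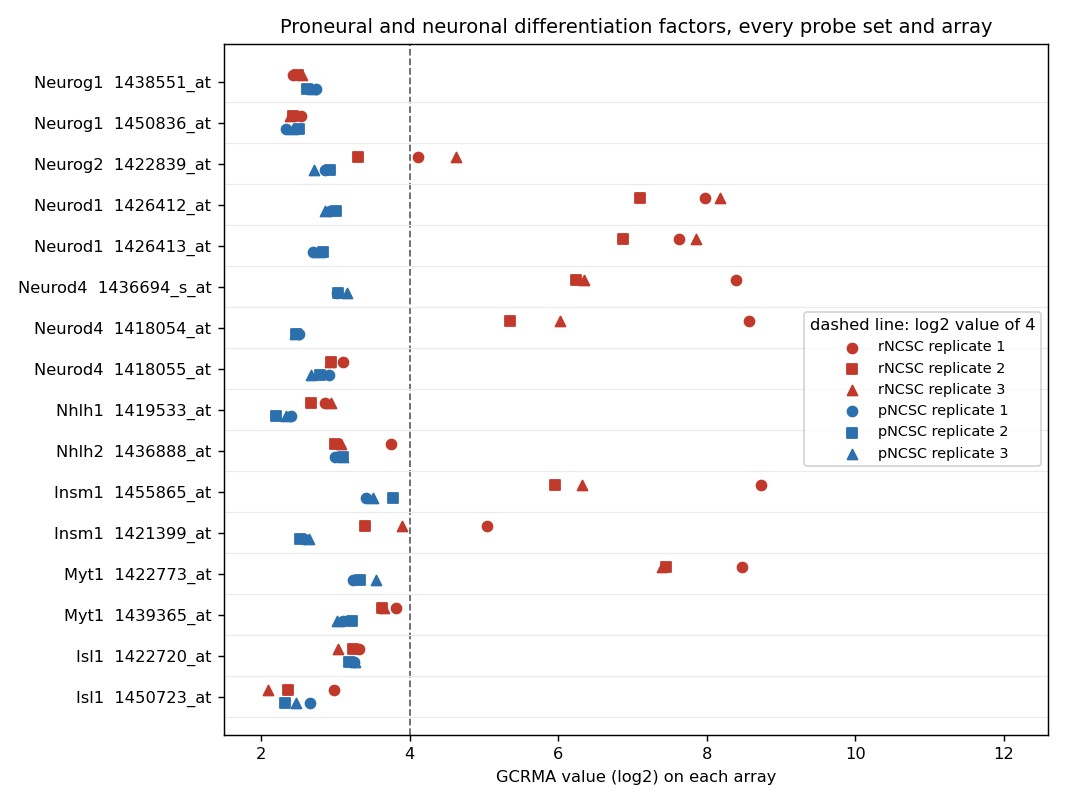
GCRMA value (log2, horizontal axis) of each of the 16 member probe sets (rows) on each array, rNCSC in red and pNCSC in blue, with a symbol for each replicate and a dashed line at 4. All pNCSC points lie left of the line, and Neurod1, Neurod4, Insm1 and Myt1 each have a probe set with all 3 rNCSC points right of it.

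The neurogenins, which open the sequence, were dim. Neurog2 (1422839_at) measured 4.12, 3.31 and 4.63 on rNCSC arrays 1, 2 and 3, and 2.86, 2.93 and 2.71 on the pNCSC arrays. The 2 rNCSC arrays above 4 kept it out of the test by 1 array, although all rNCSC values lay above all pNCSC values. Its measured difference was 1.18 (95% interval 0.43 to 1.94), called in the fit without a filter (adjusted p 0.018, limma), but with pNCSC set to 4 the rNCSC mean was only at least 1.01-fold higher. Neurog1, the factor of the later wave of small DRG neurons, stayed between 2.43 and 2.55 in rNCSC and between 2.61 and 2.74 in pNCSC for 1438551_at. Its difference of -0.19 (-0.38 to 0.01) was not called (adjusted p 0.11), and 1450836_at gave 0.02 with overlapping groups. At these intensities neither probe set shows Neurog1 on in either culture, which is a limit of detection and not a measure of absence.

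Neurod1, which drives neuronal differentiation and survival after the neurogenins, had the largest difference of the 4 tested members. Its probe set 1426412_at measured 7.98, 7.10 and 8.17 in rNCSC and 2.93, 3.00 and 2.86 in pNCSC. The lowest rNCSC array, replicate 2, was still far above the highest pNCSC array. The means were 7.75 ± 0.57 and 2.93 ± 0.07 (SD, n = 3 each), a difference of 4.82 (SE 0.28, adjusted p 9.4e-06, limma), or at least 13.5-fold with the dim pNCSC values set to 4. The second probe set, 1426413_at, gave 7.63, 6.88 and 7.85 against 2.70, 2.84 and 2.79, in the same order among the rNCSC arrays, and a difference of 4.68 (4.09 to 5.26).

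Neurod4 (also called Math3), a bHLH factor of the same family that acts with other proneural genes in neuronal commitment, differed widely among the rNCSC arrays. Its brightest probe set, 1436694_s_at, measured 8.39, 6.23 and 6.35 in rNCSC and 3.03, 3.03 and 3.16 in pNCSC. Replicate 1 stood 2.10 above the mean of the other 2, and the groups did not overlap. The means were 6.99 ± 1.21 and 3.07 ± 0.07 (SD, n = 3 each), with a difference of 3.92 (SE 0.56, adjusted p 0.00069, limma). With pNCSC set to 4 the fold was at least 7.95. In the fit without a filter the 95% interval of the log2 difference was 2.59 to 5.25. Without rNCSC replicate 1 the difference was 3.22 (adjusted p 1.2e-05, limma) and the bound 4.89-fold. The probe set 1418054_at showed the same array apart, at 8.57, 5.35 and 6.02 against 2.51, 2.47 and 2.46, with a difference of 4.16 (2.31 to 6.02). The remaining probe set, 1418055_at, was dim on all 6 arrays (difference 0.20, adjusted p 0.14, limma without a filter), so the Neurod4 probe sets did not all report the same.

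The Nhlh factors, late and short-lived bHLH factors of newborn neurons, were dim throughout. Nhlh1 (1419533_at) measured 2.86, 2.67 and 2.94 in rNCSC against 2.40, 2.20 and 2.33 in pNCSC, a small step of 0.51 (0.26 to 0.77) that passed in the fit without a filter (adjusted p 0.0064, limma). Since both groups lay under 4, no fold is given. Nhlh2 (1436888_at) measured 3.74, 2.99 and 3.07 against 2.99, 3.11 and 3.10, with overlapping groups and a difference of 0.20 (-0.29 to 0.69, adjusted p 0.45). Its only raised value was again on rNCSC replicate 1.

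Insm1, a zinc finger factor that promotes the step from proliferating to neuron-producing progenitors and also serves in endocrine cells, had the largest spread among the rNCSC arrays of the 4 tested probe sets. Its probe set 1455865_at measured 8.73, 5.95 and 6.33 in rNCSC and 3.41, 3.77 and 3.50 in pNCSC. Replicate 1 lay 2.59 above the mean of the other 2, while all 3 lay above every pNCSC array. The difference was 3.44 (SE 0.69, adjusted p 0.0036, limma) between means of 7.00 ± 1.51 and 3.56 ± 0.18 (SD, n = 3 each). With pNCSC set to 4 the rNCSC mean was at least 8.02-fold higher. In the fit without a filter the 95% interval of the log2 difference was 1.79 to 5.09. Without rNCSC replicate 1 the difference was 2.58 (adjusted p 1e-04, limma) with a bound of 4.41-fold. The dimmer probe set 1421399_at measured 5.04, 3.39 and 3.90 against 2.58, 2.52 and 2.65, with only replicate 1 above 4 and a difference of 1.53 (0.59 to 2.47).

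Myt1, a zinc finger factor that acts with proneural bHLH factors and against Notch targets, was high on all rNCSC arrays. Its probe set 1422773_at measured 8.47, 7.45 and 7.40 in rNCSC and 3.24, 3.33 and 3.55 in pNCSC, so replicate 1 was highest by 1.02. The means were 7.78 ± 0.60 and 3.37 ± 0.16 (SD, n = 3 each), a difference of 4.40 (SE 0.30, adjusted p 2e-05, limma) and at least 13.7-fold. The other probe set, 1439365_at, was dim, at 3.81, 3.63 and 3.65 against 3.10, 3.22 and 3.02. Isl1 was at the floor in both cultures: 1422720_at differed by -0.03 (-0.28 to 0.21) and 1450723_at by -0.01 (-0.57 to 0.55), and neither reached 4 on any array. The intervals bound any Isl1 difference only on this compressed scale of dim values.

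**Figure D2:**
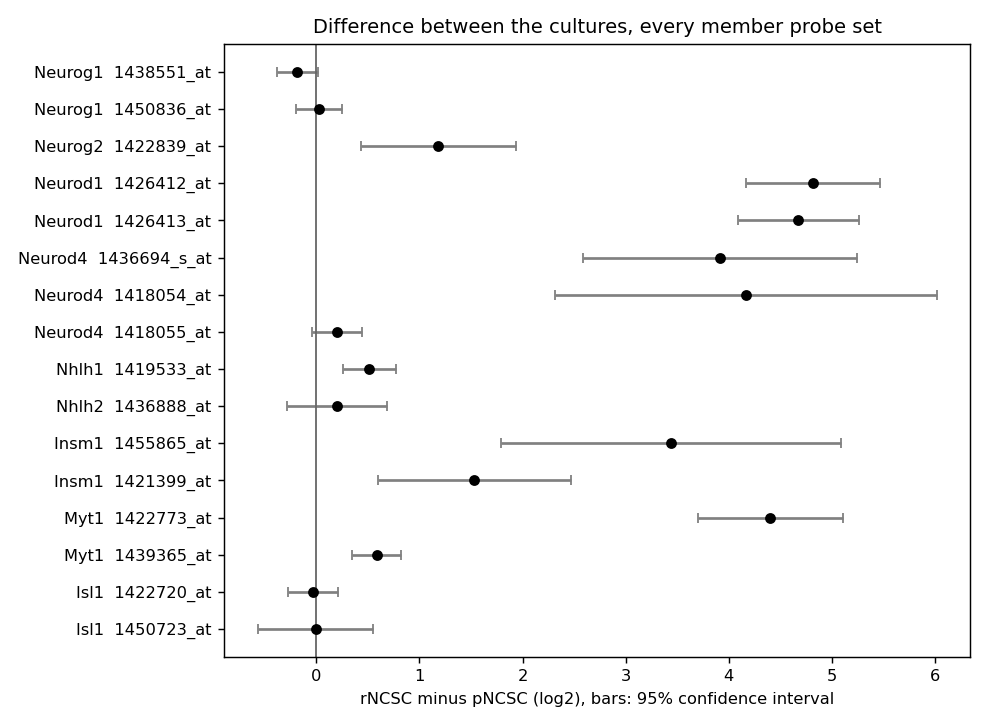
Difference of rNCSC minus pNCSC (log2, horizontal axis) for the 16 member probe sets, with 95% confidence intervals from limma fitted on all single-gene probe sets without a filter. The brightest probe sets of Neurod1, Neurod4, Insm1 and Myt1 have points between 3.44 and 4.82, their dimmer ones reach down to 0.20, and the intervals of both Neurog1, both Isl1, the Nhlh2 and 1 Neurod4 probe set include 0.

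The promoters of the members that were on are shown because E-boxes, the 6 bases CANNTG, are the DNA element that bHLH factors bind. The RefSeq promoter table used here (GRCm38.p6) matched 8 of the 9 members, and the 250 bases before the start at the 5′ end of the gene follow for 3 of the 4 called members, written 5′ to 3′ on the gene's strand with matches in capitals. They lie at chr2:79456637-79456886 on the minus strand for Neurod1, chr10:130280255-130280504 on the minus strand for Neurod4 and chr2:181763082-181763331 on the plus strand for Myt1.
Neurod1: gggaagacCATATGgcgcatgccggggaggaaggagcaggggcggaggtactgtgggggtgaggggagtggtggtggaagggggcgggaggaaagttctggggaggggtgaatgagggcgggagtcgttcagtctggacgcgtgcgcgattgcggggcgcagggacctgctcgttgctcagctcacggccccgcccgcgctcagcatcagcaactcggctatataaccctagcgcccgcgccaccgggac
Neurod4: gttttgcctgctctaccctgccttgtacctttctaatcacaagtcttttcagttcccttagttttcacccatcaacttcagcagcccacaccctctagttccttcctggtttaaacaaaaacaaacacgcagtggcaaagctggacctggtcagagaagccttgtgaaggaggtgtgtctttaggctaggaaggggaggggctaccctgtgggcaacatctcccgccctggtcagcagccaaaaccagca
Myt1: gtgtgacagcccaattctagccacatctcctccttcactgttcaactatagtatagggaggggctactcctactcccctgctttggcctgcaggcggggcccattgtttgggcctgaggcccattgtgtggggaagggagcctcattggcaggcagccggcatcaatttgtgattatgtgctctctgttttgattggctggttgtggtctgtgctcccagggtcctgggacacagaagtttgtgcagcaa
Neurod1 holds 1 match, CATATG, whose first base is 242 bases before the start, and the printed windows of Neurod4 and Myt1 hold 0. A second Neurod4 start also has 0 in its window, while the windows of 2 further Myt1 starts, inside the gene, hold CATTTG at 191 and 129 bases and CATGTG at 114 bases before the start. CANNTG reads the same on both strands as a pattern and occurs in 66.2% of 32851 windows of this length. Among the dim members, Nhlh1 holds CAGATG (203 bases before the start), Nhlh2 CAACTG and CAGATG, and Isl1 CAGCTG, while both neurogenin windows hold 0. The Nhlh2 and Neurog2 windows belong to starts that are not at the 5′ end of the annotated gene, unlike the printed ones. CAGATG or its reverse CATCTG, and CAGCTG, are cases of CANNTG that occur in 14.4% and 13.0% of windows. A match is a string of letters and not a measured site, and these windows do not cover distant enhancers.

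The rNCSC arrays were not alike for the members that were on. Insm1, Neurod4 and Myt1 were each higher on rNCSC replicate 1 than on both other rNCSC arrays by at least 1, a step that 136 of the 11722 tested genes showed (1.16%). Insm1 stood 21st by this excess (2.40 over the next array), Neurod4 was at rank 32 (2.04) and Myt1 at rank 131 (1.02). Neurod1 did not share the step, since replicate 3 was its highest array. A pair of relatives too dim for the test showed the same array apart: Neurod6, a bHLH factor of postmitotic neurons, measured 4.74, 2.89 and 3.04 in rNCSC, and Myt1l, the neuron-restricted relative of Myt1, measured 5.61, 3.34 and 3.78. Over 19 tested pan-neuronal genes the median excess of replicate 1 over the mean of the other 2 was 0.79, against -0.01 over all tested genes. Only 2 of these 19 showed the step of at least 1. The median was 0.89 over the 7 tested relatives of Insm1, Myt1 and Isl1. Other lists did not share it: 0.05 over 18 tested proneural targets, 0.05 over the sensory list and 0.07 over the autonomic list. Over the bHLH partners and antagonists it was -0.30, over the other bHLH factors -0.05, and over 13 cell cycle genes -0.02. Not all genes high on this array were neuronal. Pdgfra, a receptor of oligodendrocyte precursors and mesenchyme, measured 8.94, 5.97 and 5.13 in rNCSC against 12.12, 11.13 and 11.24 in pNCSC. Nkx2-2, a ventral neural tube factor, measured 7.27, 4.05 and 4.44 against 2.34, 2.72 and 2.35. Several genes with a large excess on replicate 1 were, like Pdgfra, lower in rNCSC than in pNCSC. Among them was Rps4l, at rank 1 (7.90, 3.23 and 3.39 against 8.95, 9.58 and 8.93). Pdgfra, Nkx2-2 and Rps4l were picked after their values were seen. Whether the share of cells, their state or the preparation of this array moves with these values was not tested.

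The genes nearest in profile were ranked by the root mean square difference (RMS, in log2) between profiles centred on their own mean over the 6 arrays, as a description of 6 points. For Neurod1 they were Rtkn2 (0.18), Rad54l (0.21), which acts in recombination repair, and Lmo3 (0.21), a LIM-only protein. For Insm1 the nearest was Nsg2, a neuronal vesicle protein (0.09), at 8.73, 5.80 and 6.16 in rNCSC, followed by Neurod4 itself (0.32) and Rab33a (0.34). Neurod4 lay closest to Rab33a (0.21), Nap1l2 (0.21), a neuronal nucleosome assembly protein, and Rlbp1 (0.27). Myt1 lay closest to Zswim5 (0.14), Tlcd3b (0.15) and Dll3 (0.17), the divergent Delta ligand that proneural factors induce. The separation of the cultures dominates all these distances.

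**Figure D3:**
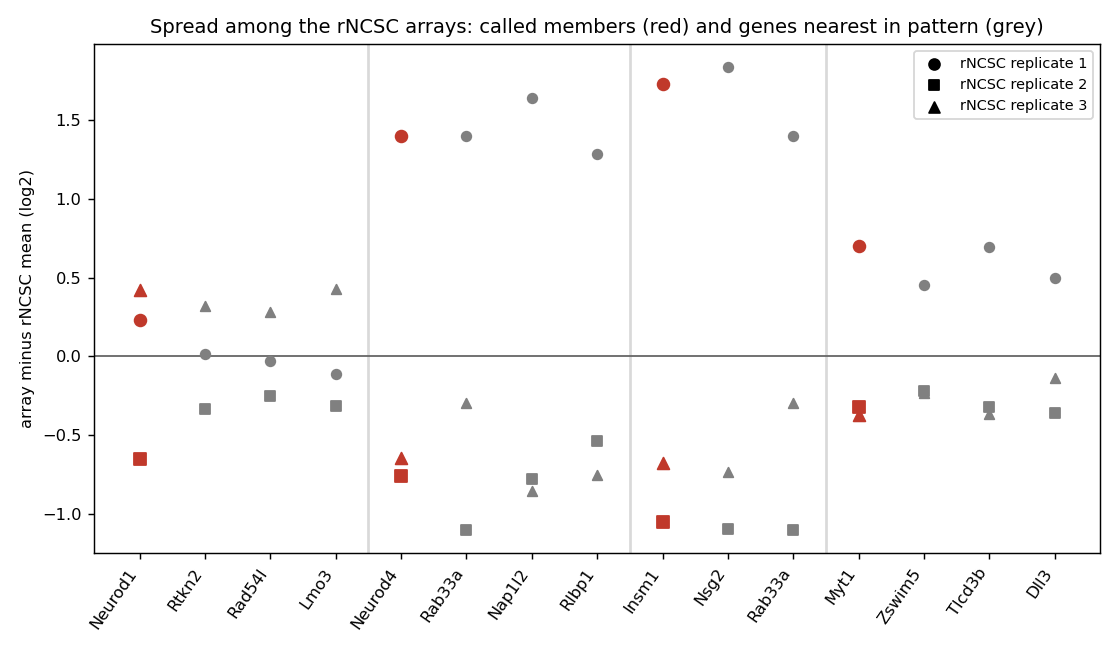
Each rNCSC array's value minus the mean of the 3 rNCSC arrays (log2, vertical axis) for the called members (red) and the genes nearest in profile (grey), with a symbol per replicate. Replicate 1 is high for Neurod4, Insm1, Nsg2 and Myt1, and replicate 3 is the highest for Neurod1.

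The other proneural and neuronal bHLH factors were nearly all dim, as 11 of the 13 with a probe set did not enter the test. The 2 that did were lower in rNCSC. Atoh8 measured 3.26, 3.17 and 3.14 against 4.18, 4.80 and 4.51 (difference -1.31, at least 1.41-fold lower, adjusted p 0.00048, limma), and Tal2 differed by -0.68 (adjusted p 0.0022). Both lay close to the line of 4, and the list median of -0.996 (-0.31 with dim arrays set to 4) rests on these 2 genes, against 0.12 over all tested genes.

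Partners and antagonists of the bHLH factors differed in both directions: of 16 genes, 14 were tested, 8 were higher in rNCSC, 5 lower and 1 not called, with a list median of 0.62. The Notch effector Hes5, which represses proneural genes, measured 10.32, 9.65 and 10.33 in rNCSC and 2.67, 3.51 and 3.32 in pNCSC, at least 68.7-fold higher (difference 6.94, adjusted p 1.9e-06, limma). Hey1 (4.46, at least 14.2-fold) and Hey2 (2.31), also Notch effectors, were higher too, as was Hes6 (4.15, adjusted p 2.2e-06), an antagonist of Hes1 that promotes differentiation. Hes5, Neurod1 and Myt1 were thus all high on the same rNCSC arrays, and whether single cells held them together was not measured. Hes1 was not called (0.75, adjusted p 0.13), though it passed without rNCSC replicate 1 (1.07, adjusted p 0.046).

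The E proteins, the obligate partners, were bright in both cultures and higher in rNCSC in the probe sets tested. Tcf3 measured 8.19, 8.65 and 8.72 against 7.23, 7.09 and 7.18 (difference 1.35, adjusted p 0.00032), and Tcf4 differed by 0.49 (adjusted p 0.0041, limma). Tcf12 differed by 0.41 (adjusted p 0.020), but the call was lost in several fits that left out 1 array (adjusted p up to 0.065), and another of its probe sets, 1446294_at, went the opposite way by -0.99 (adjusted p 0.0074). Id genes split: Id2 was higher in rNCSC by 1.56 (adjusted p 0.00028, limma), while Id1 fell by 2.93 and Id4 fell by 2.90. Id4 measured 5.02, 7.48 and 5.30 in rNCSC against 8.71, 8.67 and 9.12, and without rNCSC replicate 2 its difference was -3.68. Id3 differed by -0.81, a call lost without pNCSC replicate 2 (adjusted p 0.051) or rNCSC replicate 3 (0.059, limma). Rest, the repressor of neuronal genes in other cells, measured 7.93, 8.58 and 8.47 in rNCSC against 9.57, 9.31 and 9.27 in pNCSC, lower by a difference of -1.05 (adjusted p 0.0026). The difference of its corepressor Rcor1, -0.66, lost its call without any 1 of the rNCSC arrays (adjusted p 0.057 to 0.096, limma).

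Known targets of proneural factors were more often higher than lower in rNCSC. Of 24 genes 18 were tested: 12 were higher, 2 lower and 4 not called, where 40.2% of all tested genes were higher. The list median was 1.27 (1.02 with dim arrays set to 4) beside 0.12 over all tested genes. Hes6 was also counted among the partners and antagonists, and Elavl3 and Elavl4 are counted again among the pan-neuronal genes. Sox11, a factor that activates pan-neuronal genes, measured 12.53, 12.46 and 12.59 in rNCSC against 5.37, 2.87 and 3.07, at least 270-fold higher (difference 8.76, adjusted p 2.7e-05, limma), and 9.56 without pNCSC replicate 1. The neuronal RNA-binding genes Elavl4 (8.23, at least 94.2-fold) and Elavl2 (8.00, at least 109.6-fold) were under 4 on all pNCSC arrays. Dll3 measured 8.37, 7.51 and 7.74 against 3.31, 3.35 and 3.33 (difference 4.54, adjusted p 4.5e-06), and Dll1, the activating Notch ligand, 8.15, 8.30 and 8.72 against 6.74, 7.24 and 6.74 (1.48, adjusted p 0.00065, limma). Ebf1 was lower in rNCSC by a difference of -3.64 (adjusted p 8.5e-06, limma), and Cbfa2t2 by -0.91, which the mean over its probe sets brought to -0.10 (adjusted p 0.40). Cdkn1c, a cyclin-dependent kinase inhibitor, measured 9.91, 6.31 and 6.38 in rNCSC against 5.04, 4.59 and 4.60, with the same array apart as Insm1 (Cdkn1c and Dll1 are named after their values were seen). Its difference of 2.79 fell to 1.60 without that array, and its call (adjusted p 0.032) was lost without any 1 of the pNCSC arrays (0.056 to 0.085, limma).

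**Figure D4:**
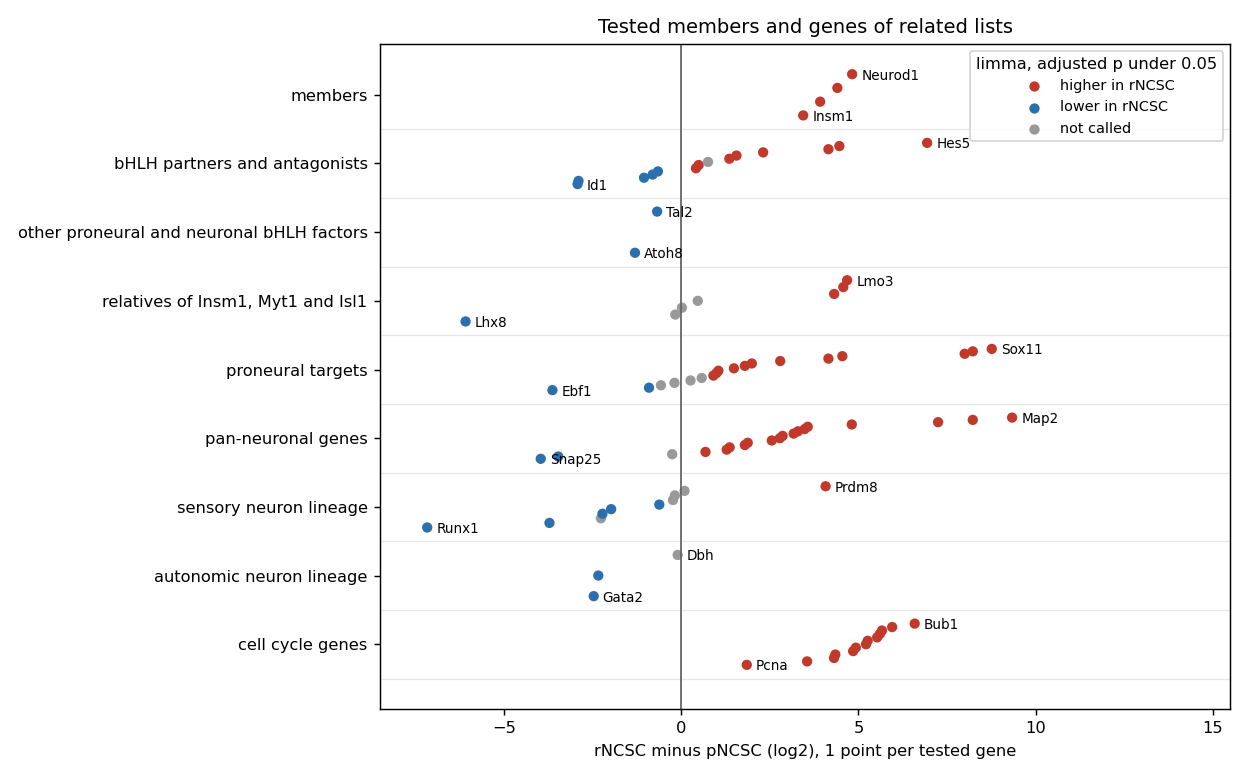
Difference of rNCSC minus pNCSC (log2, horizontal axis) for each tested member and each tested gene of the related lists (rows), coloured by the limma call at an adjusted p of 0.05. The 4 members lie between 3.44 and 4.82, the cell cycle genes are all higher in rNCSC, and the sensory and autonomic lists lie mostly to the left of 0.

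Of 25 pan-neuronal genes, which post-mitotic neurons of any kind express, 19 were tested. In rNCSC 16 were higher, 2 lower and 1 not called, where 40.2% of all tested genes were higher. The list median was 2.78, or 2.17 with dim arrays set to 4. The other 6, Dcx, Stmn2, Syt1, Nefl, Nefh and Celf3, did not reach 4 on 3 arrays and were not tested. Dcx fell short by 1 array, at 5.83, 5.44 and 3.85 in rNCSC against 2.50, 2.52 and 2.61 in pNCSC. Of the rest, all near or under 4, Syt1, Nefl and Celf3 lay higher in rNCSC, Stmn2 lay lower, and Nefh overlapped. Tubb3, named after its values were seen, differed by 1.28 (adjusted p 0.017, limma). Its call was lost without pNCSC replicate 1 (adjusted p 0.051) or 2 (0.053, limma). Map2 measured 13.77, 13.58 and 13.69 against 3.96, 4.57 and 4.50, at least 640-fold higher (difference 9.34, adjusted p 1e-07, limma). Stmn3, which regulates microtubules, differed by 7.25. Nsg1 was the gene not called (-0.26, adjusted p 0.15). Snap25, a protein of vesicle fusion, measured 6.55, 5.36 and 6.25 in rNCSC against 10.66, 9.32 and 10.09 (difference -3.97, adjusted p 0.00017), and Scg2, a granin of dense-core vesicles, differed by -3.47 (adjusted p 4.6e-05, limma), while Scg3, another granin, was higher in rNCSC by 4.81 (Nsg1 and Scg3 are named after their values were seen). Some of these genes are also expressed in neural progenitors, so the list does not count neurons.

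Genes of the sensory lineage, the normal fate of neurogenin-expressing crest cells in DRG, were mostly dim in both cultures or lower in rNCSC. Of 26 genes 20 had a probe set and 10 were tested, where 11722 of all 18194 genes were tested. Of the 10, 1 was higher in rNCSC, 5 were lower and 4 were not called (median -1.30, or -0.63 with dim arrays set to 4). Over all tested genes 4717 were higher, 3879 lower and 3126 not called. The 4 not called were Eya1, Prph, Ntrk2 and Ntrk3. The receptors Ntrk2 (mean 8.16 in rNCSC against 8.07 in pNCSC) and Ntrk3 (8.18 against 8.37) were bright in both cultures. The gene that rose was Prdm8, a repressor also used in the brain, at 8.14, 7.84 and 8.27 against 3.20, 3.73 and 5.11 (difference 4.07, adjusted p 0.00024, limma). Runx1, a factor of nociceptors and of blood, measured 3.33, 3.48 and 3.08 against 10.35, 10.62 and 10.44 (-7.17, at least 88.7-fold lower). Ret (-2.23), Runx3 (-1.98), Six4 (-0.62) and Tac1 (-3.72) were the other 4 lower genes. The calls of Tac1 (adjusted p 0.052 and 0.060 without rNCSC replicates 2 and 3) and Six4 (0.056 to 0.083 in 4 of the 6 such fits) were not kept when 1 array was left out (limma), and the Tac1 difference was -2.69 without pNCSC replicate 1, -4.33 without pNCSC replicate 2 and -4.58 without rNCSC replicate 1. Pou4f1, the POU factor that with Isl1 defines sensory neurons, was at the line in both cultures, at 4.46, 4.02 and 3.69 against 3.96, 3.74 and 3.71, and is named after its values were seen.

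Autonomic genes gave no rise among the 3 tested of 10 with a probe set. Gata2 (-2.47, adjusted p 9.4e-06) and Gata3 (-2.34, adjusted p 5.2e-06, limma), factors of sympathetic neurons and of other tissues, were lower in rNCSC, and Dbh, the noradrenaline-synthesising enzyme, was not called (-0.10, adjusted p 0.51). Among the relatives of Insm1, Myt1 and Isl1, 7 of 19 were tested: Lmo3 (4.68), Lmo1 (4.57) and Lhx2 (4.31) were higher in rNCSC, Lhx8 was lower, and Ldb1, Ldb2 and Lmo4 were not called. Lhx2, a LIM factor of forebrain and eye progenitors, measured 7.38, 5.11 and 7.38 in rNCSC against 2.19, 2.36 and 2.39, and without rNCSC replicate 2 the difference was 5.07 in place of 4.31. Lhx8, a LIM factor of ventral forebrain and of tooth and palate mesenchyme, measured 2.98, 3.31 and 3.13 against 10.20, 8.76 and 8.73 (-6.09, at least 37.5-fold lower, adjusted p 1.7e-05, limma).

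Cell cycle genes moved with the members between the cultures, as all 13 tested were higher in rNCSC (median 5.21, with Bub1 at 6.59, Mcm5 at 5.95 and Aurkb at 5.66). Their summed log2 level ranged from 148.4 to 149.5 over the rNCSC arrays and from 82.4 to 90.0 over the pNCSC arrays. Their part in the members' differences was not tested. Insm1 also marks endocrine and Merkel cells. Of 12 Merkel and neuroendocrine markers 11 had a probe set and 4 were tested: Sox2 (3.72), Syp (0.68) and Cplx2 (0.59) were higher in rNCSC, and Krt18 was lower (-2.47, a call lost without rNCSC replicate 3, adjusted p 0.053, limma, and a difference of -1.60 without pNCSC replicate 1 and -3.09 without pNCSC replicate 3). The summed log2 level of the 11 was 47.5 to 48.7 in rNCSC and 45.0 to 49.2 in pNCSC, and the defining markers Atoh1, Krt8 and Krt20 were under 4 on all 6 arrays.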

How the data were processed

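RNA of 3 rNCSC and 3 pNCSC samples was measured on 1 Affymetrix array each. The deposited table holds log2 values made by the authors with GCRMA, per the submitters' processing notes; version and settings are not given in the sources used here. The log2 scale was read from the values (1.22 to 15.58) and from array medians of 4.01 to 4.04. GCRMA equalises the arrays and would hide a change of most genes in 1 culture, and it compresses dim values. Of 45101 probe sets 34958 have 1 gene symbol in the platform annotation, the 932 with several were not used, and 9211 have none listed here. For each gene the probe set with the highest mean was tested with lmFit and eBayes (limma 3.58.1, R 4.3.3), two-sided, without covariates, adjusted by Benjamini-Hochberg over 11722 genes; 6472 dim genes were left out. Member probe sets were also fitted among all 34958 without a filter. The fit was tested on simulated data. Fold bounds set the arrays of the lower group that were under 4 to 4, and left the higher group as measured. They are bounds for the means as measured and do not include the spread between arrays. With 3 arrays a group, the smallest p of an exact permutation test is 0.1. Precision is limited by 3 arrays per group. Named were all members, any gene of the lists of bHLH factors, of partners and antagonists and of relatives, up to 3 genes per direction of the other lists, and the 3 nearest profiles of each called member. Outside the lists of cell type markers, all genes were named where 5 or fewer of a list moved one way. The markers used to describe the cultures and the genes said to be so were chosen after their values were seen. So were the genes of the sensory and pan-neuronal lists named as not called or not tested. The members, lists and alternatives were chosen with earlier results of these data known. Some genes, such as Hes6, Elavl4, Sox2 and Syp, stand in several lists, so the list counts are not independent. Promoter windows are RefSeq sequence (GRCm38.p6).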

Additional observations from a re-analysis of the deposited data

How the results depend on the processing

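Neurod1, Neurod4, Insm1 and Myt1 kept their direction and their call under each alternative that tested them. Their differences ranged over 4.61 to 5.15 for Neurod1, 2.76 to 4.30 for Neurod4, 2.49 to 3.96 for Insm1 and 2.49 to 4.59 for Myt1, lowest for the last 3 with the mean of a gene's probe sets. The number of members called was 4. It was 6 without a filter (Neurog2 and Nhlh1 added), 5 with the line at 3, 3 with the line at 6 (Insm1 left out), and 0 to 4 when 1 array was left out. The value of 0 arises without any 1 rNCSC array because the filter still asks for 3 arrays, and with the original genes kept all 4 stayed called. Beside these member counts, 9728 of all 18194 genes were called without a filter, 9576 with the line at 3 and 6761 with the line at 6. With 1 array left out and the filter applied again, 6937 to 7604 genes were called. Most tested genes are called, so the member counts say little by themselves. The count of all genes called, 8596 in the main fit, was 3892 when limma's treat asked for a log2 difference above 1. Counted as probe sets and not as genes, 15550 were called with the same filter, and 18451 of 34958 without one. With a floor of 3 in place of 4 the log2 bound of Neurod1 was 4.75 and that of Myt1 4.40. The replicate numbers do not pair the arrays (correlations of deviations 0.04, -0.04 and -0.03). With the replicate block 8166 genes, all 4 tested members and 68 list members were called, in place of 69; the block ended the calls of Tcf12 (adjusted p 0.056) and Rcor1 (0.059) and gave one to Hes1 (0.034, limma). Dim values, 3 arrays a group and 1 RNA measure per array limit what can be said of Neurog1, Nhlh1, Nhlh2 and Isl1.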
